A study of Bos taurus with 4 samples.

Results

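The genes described here are those of cytokine and growth hormone signalling through STAT factors: the SOCS inhibitors *socs1*, *socs2*, *socs3* and *cish*, the transcription factors *stat3*, *stat5a* and *stat5b*, the interleukin-6 receptor chains *il6st* and *il6r*, and the growth hormone receptor *ghr*. They were chosen by symbol, and every non-control probe whose RefSeq accession in the array files belongs to 1 of the 10 bovine symbols was taken. In all, 15 of the 43653 probes of the array were found, for 8 of the 10 genes, and all 15 were bright enough to be tested. No probe was matched to *socs1* or *il6st*, which are not analysed here. Of the other genes, *stat3* had 5 probes, *stat5a* 3, *il6r* 2, and *socs2*, *socs3*, *cish*, *stat5b* and *ghr* 1 each.

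The muscle was m. semitendinosus of bulls slaughtered at 15 months of age, from the beef breed Hereford (HER) and the dairy breed Holstein-Friesian (HF), with no treatment in either breed. Each of 4 dual-colour Agilent arrays held RNA of 1 HER bull and 1 HF bull, so that there were 4 bulls of each breed, and the arrays are called replicate 1 to replicate 4. The comparison asked which transcripts differed between a beef and a dairy breed in mature muscle. As RNA was taken from whole tissue, fewer cells of a type and less RNA per cell cannot be told apart.

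Growth hormone and interleukin-6 act through receptors without enzyme activity of their own, which carry Janus kinases on their inner side. The growth hormone receptor works mainly through STAT5A and STAT5B, and the interleukin-6 receptor, with its signalling chain gp130 (encoded by *il6st*), mainly through STAT3. The phosphorylated STAT proteins enter the nucleus and switch on, among others, the SOCS genes, whose proteins bind the receptors or the kinases and end the signal. In muscle the growth hormone branch is known for *igf1* expression and growth, and the interleukin-6 branch for responses to exercise and inflammation.

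By the dye labels Cy3 was HER and Cy5 was HF, but the same labels carry a remark that the dyes were swapped so as to set HF as the reference. By the dye labels a positive log2(Cy5/Cy3) is higher in HF, and by the remark it is higher in HER. The signs in the study's tables of fold changes, which are given as HER against HF, run as Cy5 over Cy3 for 108 of the 111 genes matched. All values below are log2(Cy5/Cy3), and no breed is given to a direction. All 4 arrays had 1 dye orientation, so a dye effect of a probe and a breed effect cannot be told apart. The median spot signal was 129 to 160 in Cy5 and 77 to 138 in Cy3, over a median local background of 37 to 41, and no spot was saturated. Between 76.7% and 82.1% of the spots were well above background in Cy5, and between 65.2% and 76.3% were in Cy3. The test covered 32608 probes, of which 1083 were called, by which is meant an adjusted p below 0.05 in limma, a linear model with moderated variances. All 12 tested skeletal muscle markers were well above background in both channels on every array. So were 9 of 9 endothelial, 10 of 10 fibroblast and 14 of 15 leukocyte and macrophage markers. Detection alone therefore does not set muscle apart.

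None of the 15 probes was called between the Cy5 and the Cy3 samples, where 3.32% of all tested probes were. At an unadjusted p under 0.05 in limma 3 of the 15 passed, those of *stat5b*, *stat3* (A_73_104691) and *stat5a* (A_73_P053856), where 24.7% of all tested probes did. The adjusted p ranged from 0.0907 for *stat5b* to 0.794 for the dimmer probe of *il6r*. A 1.3-fold difference at an unadjusted limma p up to 0.05 was met by *stat5b* and the brightest probe of *stat3*, both positive. These are 2 of 15 probes, where 14.4% of all tested probes passed in either direction and 7.96% were positive. With the methods' t-test in place of limma at these thresholds, 0 of the 15 probes passed, where 8.85% of all tested probes did, and after adjustment that test called none of all 32608 probes. The same sign on all 4 arrays was seen at 4 of the 15 probes, against 32.7% of all tested probes. With each gene at its brightest probe, 7 of the 8 genes had a positive mean log2 ratio and the median was 0.31, while 54.3% of all 9426 tested genes were positive and their median was 0.02.

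**Figure D1:**
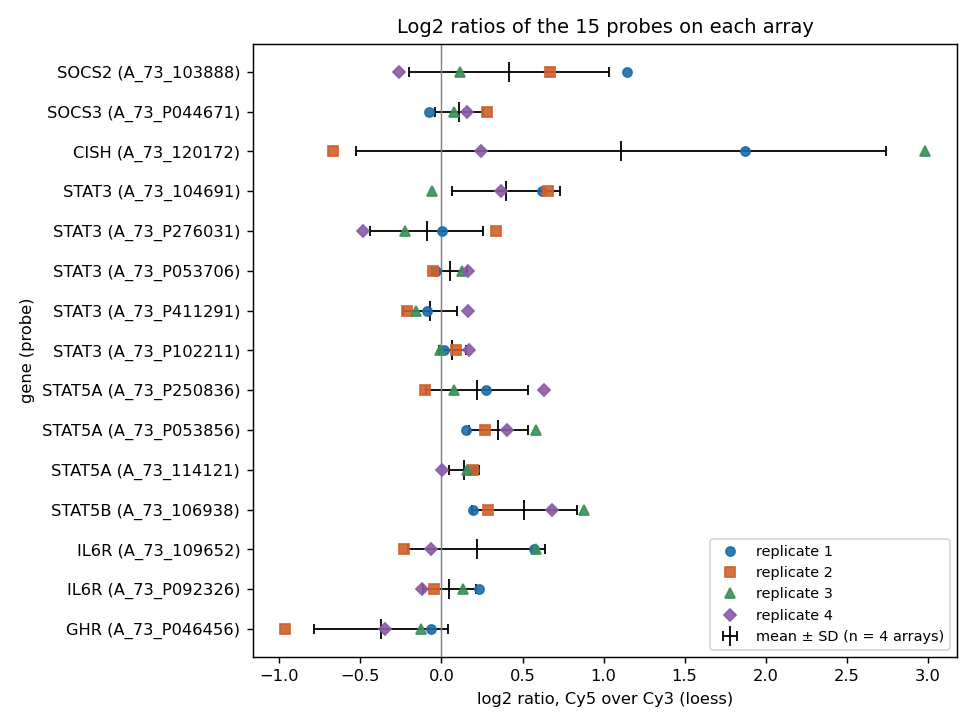
Log2(Cy5/Cy3), on the horizontal axis, of each of the 15 probes (vertical axis, gene and probe), with 1 symbol per array and black marks with bars for the mean ± SD over 4 arrays. Most probes lie within 1 log2 unit of 0 on every array, and *cish* runs from -0.67 to 2.99.

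*Cish*, a SOCS family member induced by STAT5 after growth hormone, had the largest mean ratio of the 8 genes and by far the largest scatter. Its log2 ratio was 1.87 on replicate 1, -0.67 on replicate 2, 2.99 on replicate 3 and 0.24 on replicate 4. These are 3.66-fold and 7.92-fold higher in Cy5 on replicates 1 and 3, 1.18-fold higher on replicate 4 and 1.59-fold lower on replicate 2. The mean was 1.11 ± 1.63 (SD, n = 4), with a 95% interval of the moderated mean from -0.33 to 2.55 and an adjusted p of 0.309 from limma. As a fold of Cy5 over Cy3 this interval runs from 0.794 to 5.86.

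The values of *cish* varied between bulls in both channels. After normalization of the separate channels its log2 intensity was 9.74, 9.28, 10.53 and 7.96 in the Cy5 bulls of replicates 1 to 4, and 7.86, 9.95, 7.54 and 7.72 in the Cy3 bulls. In Cy3 the bull of replicate 2 stood more than 2 log2 units above the other 3, and in Cy5 the bull of replicate 4 was lowest, so that the channels overlapped. The unprocessed signals showed the same bulls, with 475.5 in Cy3 on replicate 2 against 113, 142 and 236 on replicates 1, 3 and 4, and 310 in Cy5 on replicate 4 against 998, 1029 and 2232 on replicates 1 to 3. Only 0.104% of all tested probes had an SD at least as large as that of *cish*, and the median SD was 0.21. Without replicate 2 the mean of *cish* was 1.70 and without replicate 3 it was 0.48, and neither was called. Each bull was measured on a single array, so differences between bulls and between hybridizations cannot be told apart.

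**Figure D2:**
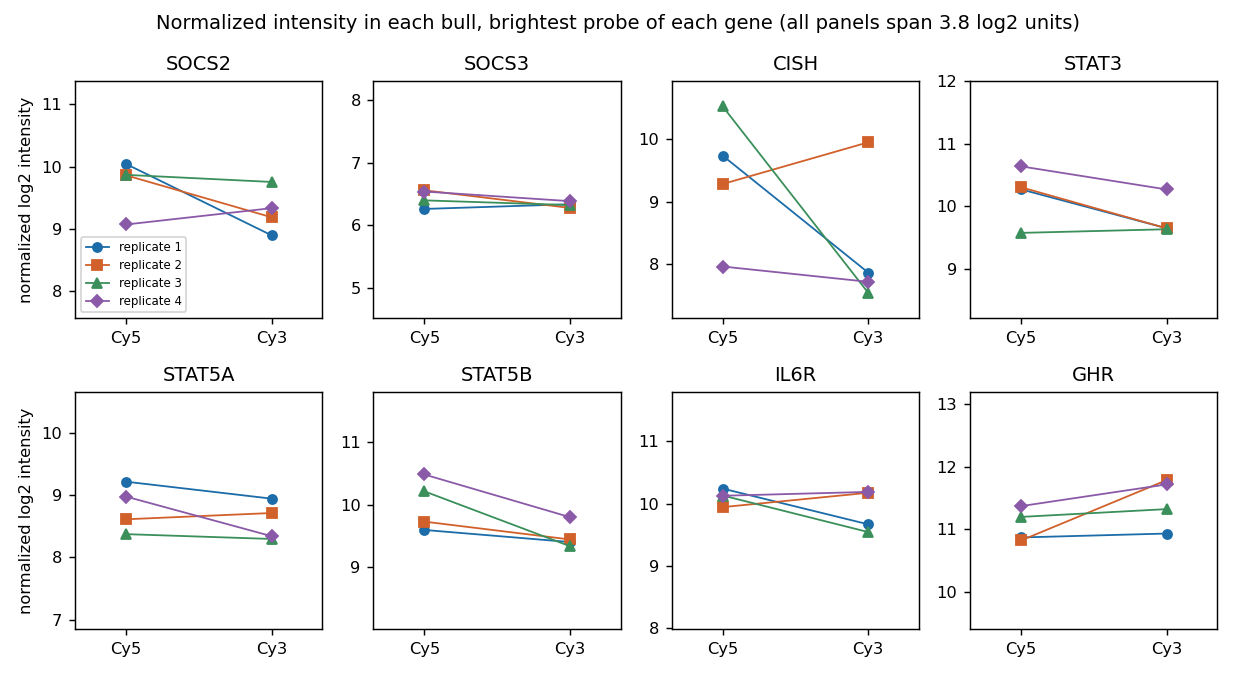
Normalized log2 intensity (vertical axes, each spanning the same number of log2 units) in the Cy5 and the Cy3 channel for the brightest probe of each gene, with 1 symbol per bull and lines joining the bulls of 1 array. The *cish* values cover 7.54 to 10.53 and the lines cross, while the *stat5b* lines all fall from Cy5 to Cy3.

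*Socs2*, another inhibitor induced by growth hormone and the one whose loss gives oversized mice, was at 1.14, 0.67, 0.11 and -0.26 on replicates 1 to 4. Its mean was 0.42 ± 0.62 (SD, n = 4, limma adjusted p = 0.330), and 3 of 4 arrays were above 0. Without replicate 1 the mean was 0.17. In the Cy5 bulls its log2 intensity was 10.04, 9.86, 9.87 and 9.07, and in the Cy3 bulls 8.90, 9.19, 9.75 and 9.33. The lowest Cy5 value, that of replicate 4, lay within the Cy3 values. Both *cish* and *socs2* thus had their lowest Cy5 value in the bull of replicate 4, but in Cy3 the bull of replicate 2, highest for *cish*, was the second lowest for *socs2*.

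*Socs3*, the inhibitor that binds gp130 and ends interleukin-6 signals, was close to the detection limit. Its unprocessed signal was 66, 85, 71 and 80.5 in Cy5 and 51, 49.5, 64 and 71.5 in Cy3, and it was well above background on 4 of 4 arrays in Cy5 and on 2 of 4 in Cy3. The log2 ratio was -0.08, 0.28, 0.08 and 0.15, with a mean of 0.11 ± 0.15 (SD, n = 4, limma adjusted p = 0.505). The offset of 50 added to each signal draws ratios of such dim probes towards 0, and from the scanner-processed signals *socs3* was at 0.42 with an adjusted p of 0.199. On neither scale was a difference detectable.

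**Figure D3:**
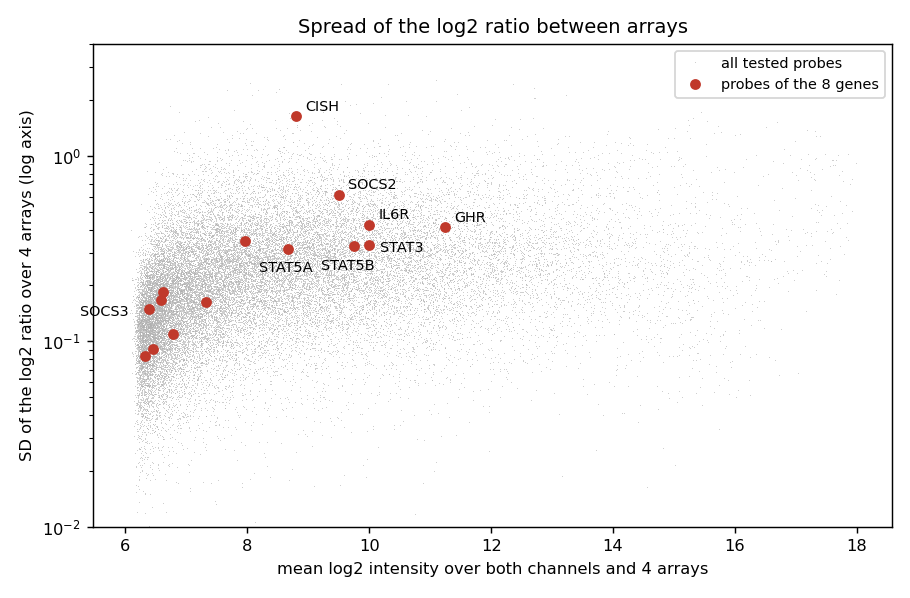
SD of the log2 ratio over 4 arrays (vertical log axis) against mean log2 intensity (horizontal axis) for all 32608 tested probes in grey and the 15 probes of the 8 genes in red, the brightest of each gene named. *Cish* stands at the upper edge with an SD of 1.63, and *socs3* and the dim probes of *stat3* and *stat5a* lie at the low-intensity end.

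The ratios of *cish* over the 4 arrays were compared with those of the other 9425 genes by the root mean square difference, and the nearest 3 are given. *Csrp3*, a muscle LIM protein of the Z-disc, was nearest at a difference of 0.62 log2 units, with ratios of 2.36, 0.21, 2.38 and 0.62. *Slc27a6*, a fatty acid transporter gene, followed at 0.77 with a mean of 1.22 ± 0.81 (SD, n = 4). *Myh2*, the myosin heavy chain of fast oxidative fibres, came next at 0.86 with ratios of 0.67, -0.19, 1.87 and 0.37. The other 3 probes of *myh2* had means of 0.82, 0.23 and -0.05. The 3 genes were higher on replicates 1 and 3 than on the others, which follows from their choice by nearness to *cish*. None was called (adjusted p = 0.112, 0.0775 and 0.255 from limma).

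*Stat5b*, encoding the STAT factor most tied to growth hormone, came nearest to a call. Its log2 ratio was 0.19, 0.29, 0.88 and 0.68, higher in Cy5 on 4 of 4 arrays, with a mean of 0.51 ± 0.32 (SD, n = 4, limma adjusted p = 0.0907). This is a 1.42-fold difference, with a 95% interval of 1.13 to 1.79 that carries no adjustment for the number of probes. The Cy5 bulls were at 9.60, 9.73, 10.21 and 10.48 on the log2 intensity scale and the Cy3 bulls at 9.40, 9.44, 9.34 and 9.80. Only the Cy3 bull of replicate 4 reached into the Cy5 values, yet on that array too the Cy5 bull was higher.

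The 3 probes of *stat5a*, the close relative of *stat5b* and the main STAT factor of prolactin signalling, had positive means that were not called. The brightest, A_73_P250836, was at 0.27, -0.10, 0.08 and 0.63 (mean 0.22 ± 0.31, SD, n = 4, limma adjusted p = 0.366), and without replicate 4 its mean was 0.083. A_73_P053856 was at 0.15, 0.27, 0.58 and 0.40, higher in Cy5 on 4 of 4 arrays, with a mean of 0.35 ± 0.18 (SD, n = 4, limma adjusted p = 0.0964). In Cy3 this probe was well above background on 1 of 4 arrays. Its ratio was 0.91 with plain subtraction of the background, where it was called (adjusted p = 0.0477 from limma), as were 4.64% of all tested probes. From the scanner-processed signals it was at 1.32 and not called (adjusted p = 0.0777 from limma). The third probe, A_73_114121, was at 0.14 ± 0.09 (SD, n = 4, limma adjusted p = 0.338) and well above background on 2 of 4 arrays in Cy3, and from the scanner-processed signals it was at 0.77 and not called. *Stat5a* and *stat5b* are near-identical copies in much of their length, and the files give no probe sequences, so whether a probe reads both could not be checked.

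*Stat3*, the factor of interleukin-6 signalling, was measured differently by its probes. The brightest, A_73_104691, was at 0.62, 0.66, -0.06 and 0.37, a mean of 0.40 ± 0.33 (SD, n = 4) or 1.32-fold, with an adjusted p of 0.148 from limma. In the Cy5 bulls its log2 intensity was 10.27, 10.30, 9.57 and 10.64, and in the Cy3 bulls 9.65, 9.65, 9.63 and 10.27. The bulls of both channels on replicate 4 were the highest of their channel, and the channels overlapped. The other 4 probes were at 0.07, 0.05, -0.07 and -0.09 (adjusted p = 0.644 to 0.754 from limma). Of these 4, 3 were among the dimmest when the tested probes were split by brightness into 3 equal classes. The offset draws ratios of such dim probes towards 0. From the scanner-processed signals the 4 were at 0.30, 0.01, -0.52 and -0.05, in the same order, and none was called. The probe at 0.30 was well above background in Cy3 on 2 of 4 arrays. With the mean over all 5 probes *stat3* was at 0.07 (adjusted p = 0.600 from limma). In the bovine RefSeq annotation *stat5b*, *stat5a* and *stat3* lie side by side in this order with no other protein-coding gene between them. Coordinates are not printed because the array was annotated on an older build.

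Of the receptors, *ghr* was the only one of the 8 genes with a negative mean at its brightest probe. Its log2 ratio was -0.06, -0.97, -0.12 and -0.35, lower in Cy5 on 4 of 4 arrays, with a mean of -0.38 ± 0.41 (SD, n = 4) and an adjusted p of 0.228 from limma. In the Cy5 bulls its log2 intensity was 10.87, 10.82, 11.20 and 11.37, and in the Cy3 bulls 10.93, 11.79, 11.32 and 11.72. The mean was carried by replicate 2, and without that array it was -0.18. When arrays were centred on their median in place of loess, *ghr* was above 0, at 0.28. The median of the brightest class of probes, to which *ghr* belonged, was then 0.64, so *ghr* stayed below its class.

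*Il6r*, the chain that binds interleukin-6, was at 0.57, -0.23, 0.59 and -0.06 at its brighter probe (mean 0.22 ± 0.42, SD, n = 4, limma adjusted p = 0.482), and its mean was 0.098 without replicate 1, 0.37 without replicate 2 and 0.094 without replicate 3. It was higher in Cy5 on replicates 1 and 3, the arrays on which *cish* was most above 0. Its dimmer probe, at 0.23, -0.05, 0.13 and -0.12, had the same sign on each array and a mean of 0.05 ± 0.16 (SD, n = 4, limma adjusted p = 0.794). The Cy5 bulls were alike at the brighter probe, with log2 intensities of 9.94 to 10.24, while the Cy3 bulls ranged from 9.54 to 10.19. Over all 15 probes, none had Cy5 and Cy3 values that did not overlap, against 14.1% of all tested probes.

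The rest of the pathway was taken from gene lists by role, each gene at its brightest probe. Of 110 listed genes other than the 10, 59 were tested, and 4 (6.78%) were called, all higher in Cy5, where 4.46% of all tested genes were called. All 4 belonged to the target lists. The lists were chosen with earlier results of these data known, so these shares, and those by list below, are descriptive only. Of 10 ligands tested none was called, with a median of 0.07, and only 3 were well above background in both channels on every array. *Il15*, a cytokine that muscle fibres make, was at 0.25, 0.18, 0.23 and 0.24, with a mean of 0.22 ± 0.03 (SD, n = 4, limma adjusted p = 0.129). *Thpo* was at -0.26 ± 0.22, *prl* at 0.21 ± 0.16 and *osm* at 0.09 ± 0.05 (SD, n = 4 for each). The other probe of *thpo* was at 0.07 and that of *prl* at 0.11.

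Of 11 other receptor subunits none was called, with a median of 0.17. *Il4r*, the chain shared by interleukin-4 and interleukin-13 receptors, was at 0.41 ± 0.12 (SD, n = 4, limma adjusted p = 0.0579) and above 0 on 4 of 4 arrays, and its other 3 probes were at 0.21 to 0.30. *Il11ra*, the interleukin-11 receptor chain that pairs with gp130, was at 0.40 ± 0.24 (SD, n = 4, limma adjusted p = 0.0966), and *il21r* at 0.39 ± 0.33 (SD, n = 4). The other probe of *il11ra* was at 0.13 and that of *il21r* at 0.20. *Ifngr1*, the interferon gamma receptor chain, was at -1.52 ± 0.95 (SD, n = 4, limma adjusted p = 0.0681), but its other probes were at 0.22 and 0.13. Among the kinases only *tyk2* was tested, at -0.03 ± 0.48 (SD, n = 4), but its other probe was at 0.47 ± 0.34 (SD, n = 4, limma adjusted p = 0.113).

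Of 9 other inhibitors none was called, with a median of 0.04 and a range from -0.10 to 0.22. The phosphatase genes *ptpn2* and *ptpn1*, whose products take phosphate off Janus kinases and STAT factors, were at 0.22 ± 0.04 and 0.21 ± 0.10 (SD, n = 4 for both), higher in Cy5 on 4 of 4 arrays, with adjusted p = 0.134 and 0.172 from limma. The other probe of *ptpn2* was at 0.15 and that of *ptpn1* at 0.06, neither of them called. *Pias3*, the inhibitor of STAT3, was at 0.14 ± 0.22 and *pias1* at -0.09 ± 0.14 (SD, n = 4 for both). The other probe of *pias3* was also at 0.14. The SOCS genes outside the 10 that were tested, *socs4* and *socs5*, were at 0.04 and -0.05. They were named after their values were seen.

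Of 13 genes listed as growth hormone and STAT5 targets, 2 were called higher in Cy5 and none lower, with a median of 0.19. Of all tested genes 4.46% were called in either direction. *Igfbp3*, the main carrier of IGF1 in blood, was at 0.56, 0.92, 0.75 and 1.24 (mean 0.87 ± 0.29, SD, n = 4, limma adjusted p = 0.0353), and its other 4 probes were at 0.39 to 0.79, of which 3 were called. *Fst*, follistatin, was at 1.18 ± 0.51 (SD, n = 4, limma adjusted p = 0.0425). *Myc*, a growth factor-induced transcription factor, was at 1.36 ± 0.81 (SD, n = 4, limma adjusted p = 0.0635) and the survival gene *bcl2l1* at 0.51 ± 0.25 (SD, n = 4, limma adjusted p = 0.0657). The other probe of *myc* was at 1.07 and those of *bcl2l1* at 0.43 and 0.06, none of them called. *Igf1*, the growth factor gene most used to read growth hormone action and named after its value was seen, was at -0.42 ± 0.24 (SD, n = 4, limma adjusted p = 0.0934). The other probes of *igf1* were at -0.21 and -0.18, neither of them called.

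Of 18 genes listed as interleukin-6 and STAT3 targets, 2 were called higher in Cy5 and none lower, with a median of 0.44. Of all tested genes 4.46% were called in either direction. *Cebpd*, an acute-phase transcription factor, was at 3.89, 3.92, 3.25 and 3.20 (mean 3.57 ± 0.39, SD, n = 4, limma adjusted p = 0.00563). *Zfp36*, which encodes a protein that marks cytokine mRNA for decay, was at 0.85 ± 0.36 (SD, n = 4, limma adjusted p = 0.0445). *Mt2a*, whose product binds zinc and copper, was at 0.97 ± 0.46 (SD, n = 4, limma adjusted p = 0.0503), while its other probe was called at 0.96 (limma adjusted p = 0.0499), and *lbp*, a lipopolysaccharide-binding acute-phase gene, at -0.71 ± 0.32 (SD, n = 4, limma adjusted p = 0.0509). *Cebpd* alone stayed called without each array in turn. The calls of *igfbp3*, *fst* and *zfp36* ended whichever array was left out, as did most calls on the array: with 3 arrays 5 to 115 probes were called in all, against 1083 with 4.

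**Figure D4:**
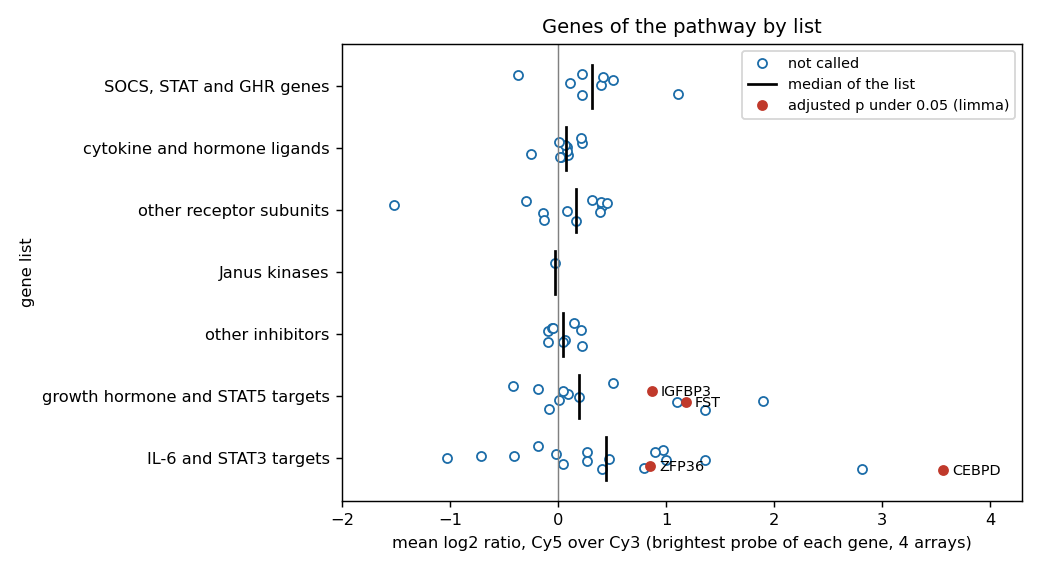
Mean log2(Cy5/Cy3), on the horizontal axis, of each tested gene at its brightest probe, by gene list (vertical axis). Open symbols were not called, red symbols were called, and black bars are the list medians, from -0.03 for the single kinase gene to 0.44 for the interleukin-6 and STAT3 targets.

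Several of these genes are also active in cells other than muscle fibres, among them *il6r* and *socs3* in leukocytes. Of 15 leukocyte and macrophage markers tested none was called, with a median of 0.50, a range from -1.30 to 1.15 and a mean log2 ratio of 0.10, 0.28, 0.21 and 0.36 on replicates 1 to 4. The lowest was *lyz*, whose other probe was at 0.89, and the highest *c1qa*, whose other probe was at 1.10. Of 9 endothelial markers none was called, with a median of 0.08. Of 10 fibroblast markers, the collagen genes *col1a1* and *col3a1* were called lower in Cy5, at -2.05 and -1.68, and none higher, with a median of 0.15. Of 9 adipocyte markers, the lipase gene *pnpla2*, which muscle fibres also express, was called higher at 1.08 and none lower, with a median of -0.13. The fat cell marker *fabp4* was at -1.19 ± 1.06 (SD, n = 4) and below 0 on 4 of 4 arrays. The part of these cells in the values of the 8 genes was not tested.

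Of the settings run, centring each array on its median gave the most calls among the 15 probes. With loess the median log2 ratio over all tested probes was 0.01, and with each array centred on its median it was 0.24, with -0.18 in the dimmest, 0.30 in the middle and 0.64 in the brightest of the 3 classes of probes. With centring, 6 of the 15 probes were called, all higher in Cy5, but so were 32.9% of all tested probes in either direction and 30.7% higher in Cy5. Those called were the brightest probes of *cish* (1.60), *stat5b* (1.08), *stat3* (0.99), *socs2* (0.96), *il6r* (0.81) and *stat5a* (0.68). Relative to the overall median of 0.24 these are 1.36, 0.84, 0.75, 0.73, 0.57 and 0.44. The probes of *stat5b*, *stat3*, *socs2* and *il6r* were in the brightest class, with its median of 0.64. Those of *cish* and *stat5a* were in the middle class, with its median of 0.30. *Ghr*, in the brightest class at 0.28, lay 0.04 above the overall median but below the 0.64 of its class. *Socs3*, in the dimmest class at -0.17, lay 0.41 below the overall median (-0.41) but close to the -0.18 of its class.

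**Figure D5:**
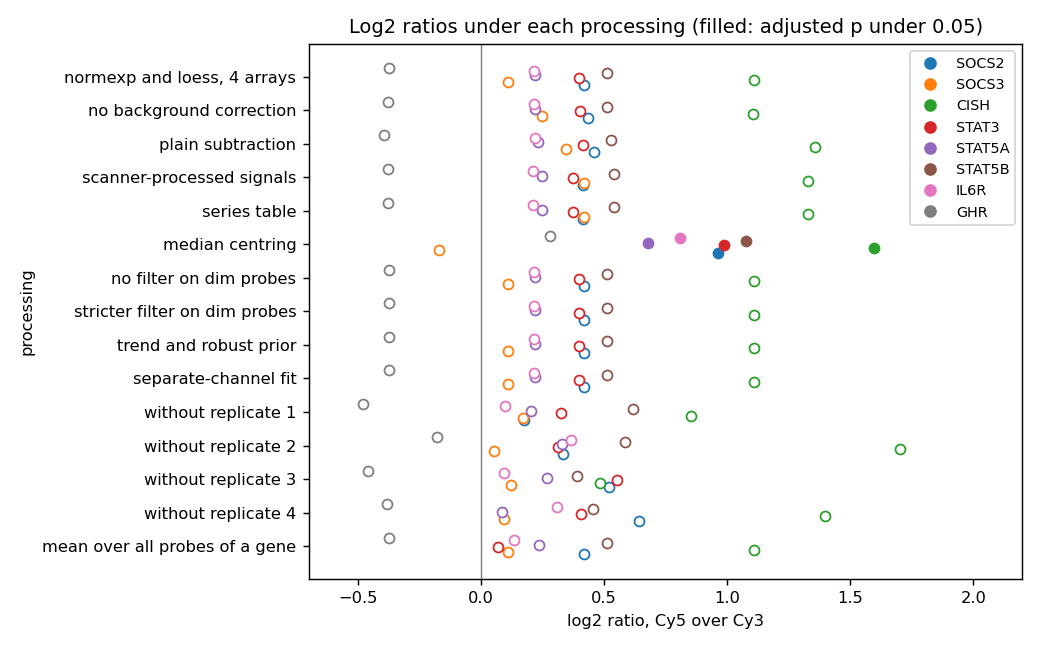
Log2(Cy5/Cy3), on the horizontal axis, of the brightest probe of each of the 8 genes under each processing (vertical axis; the lowest row averages each gene's probes), with filled symbols for an adjusted p under 0.05. With median centring 6 genes are filled, and under the other settings shown none is.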

How the data were processed

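The deposited array files hold intensity values from Agilent Feature Extraction: an uncorrected median signal and local background for each spot, and signals that the software had background-subtracted and dye-normalized. A second, deposited table of log10 ratios repeats the ratios of that software (largest difference 2.22e-16). For statistics the authors used GeneSpring, with no normalization stated in the sources used here.

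Median signals were corrected by normexp (offset 50) and normalized by loess in each array, with control spots at weight 0. Outlier spots, 7 to 14 on an array, were dropped, and replicate spots averaged. Probes were tested if well above background in the same channel on all 4 arrays with values on at least 3. Log2 ratios were tested against 0 with limma 3.58.1 (lmFit, eBayes, two-sided, Benjamini-Hochberg) in R 4.3.3, with statmod 1.5.0 for the separate-channel fit; figures were drawn with matplotlib 3.10.9. Values per bull are from Aquantile normalization between arrays. Probes were named through RefSeq accessions of ARS-UCD2.0 (23492 of 43653). The array design was annotated on Btau_3.1.

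The brightest tested probe represented a gene. From each pathway list up to 4 genes with the smallest p were named, with every called gene, and genes of like pattern were sought for members with a mean log2 ratio of at least 1 in size. Members and lists were chosen with earlier results of these data known. The values of 1 list of the pathway are not reported here. Each pair of bulls shares an array, so the ratio is the paired value, and p-values measure the spread between 4 arrays on 1 slide. Alternatives covered the background correction (none, plain subtraction, the software's own), the deposited ratio table, centring on the median, the filter (none, stricter), a trend and robust prior, a fit of both channels, the methods' t-test and criterion, the mean over probes, and each array left out. On simulated data of 32608 probes for the comparison of Cy5 with Cy3, 9.86% of probes changed 1.5-fold, 70.1% changed 2-fold and 96.8% changed 4-fold were called. Only 71, 67 and 62 probes were changed at these folds, while 1083 were called in the data. The adjustment is stricter when few probes differ, so these rates cannot be carried over to the data.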

Additional observations from a re-analysis of the deposited data

Results flagged for a closer look

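Over the 15 probes, the 15 groups of 4 ratios held no array that stood apart, and the 30 groups of 4 channel values held 2 bulls that did, by their gap to the nearest bull relative to the range. Chance gives about 1 such group in 20. For *cish* it was the Cy3 bull of replicate 2, at a normalized log2 intensity of 9.95 where the next Cy3 bull was at 7.86 and the lowest at 7.54. For *stat3* (A_73_104691) it was the Cy3 bull of replicate 4, at 10.27, above 9.65 and 9.63 as the next and the lowest. On the arrays of these bulls the log2 ratios were -0.67 and 0.37.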

How the results depend on the processing

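No probe of the 8 genes was called without background correction, with the scanner-processed signals, the series table, no filter, a stricter filter (which kept 11 of the 15 probes), the trend and robust prior, the methods' t-test, the separate-channel fit or any array left out. Of all probes the methods' t-test called 0%, the fits without 1 array 0.0153% to 0.353% and the separate-channel fit 9.85%, so that a count of 0 with the t-test or without an array says nothing about the 8 genes. Plain subtraction called 1 probe, median centring 6 probes and 6 genes, and the study's thresholds with limma passed 2 probes and 2 genes, with the methods' t-test 0 of both. For the other pathway genes, 4 calls became 32 with median centring, 2 without the filter on dim probes, 8 with the trend and robust prior, 0 with the methods' t-test after adjustment (14 at those thresholds unadjusted), 12 in the separate-channel fit, 19 by the thresholds of the study with limma and 1 without each array. With the scanner-processed signals and with the series table the count stayed at 4, but *mt2a* was called in place of *zfp36*. Without the filter *fst* and *zfp36* were not called. Signs turned with median centring for *ghr* (0.28), *socs3* (-0.17), *stat3* at A_73_P276031 (0.20), A_73_P053706 (-0.024) and A_73_P102211 (-0.25), and *stat5a* at A_73_114121 (-0.11). With 1 array left out, the dimmer *il6r* probe ranged from -0.012 (without replicate 1) to 0.10, and *stat3* A_73_P276031 from -0.23 to 0.038 (without replicate 4). The causes were not tested. Signal near background limits *socs3*, the dim *stat5a* probes and the dimmest *stat3* probe, and 4 arrays limit all.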
